A study of Rattus norvegicus with 40 samples.

Results

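The MHC class II genes and the invariant chain were followed in rat dorsal root ganglia (DRGs) after spinal nerve ligation (SNL). The members are 7 genes, chosen as the probe sets annotated with exactly 1 of the symbols Cd74, RT1-Ba, RT1-Bb, RT1-Da, RT1-Db1, RT1-DMa and RT1-DMb, out of 14217 genes with a probe set of their own on the array. They are measured by 12 probe sets, and each gene is represented by its brightest probe set over all arrays, with the others given beside it. The DRG is the cluster of sensory neuron cell bodies, satellite glia, Schwann cells, vessels and resident macrophages beside the spinal cord.

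The study operated on male Sprague-Dawley rats on the left side. In 5 SNL rats the left L5 spinal nerve was tied tightly distal to its DRG, and 5 sham rats had the same operation without the ligature. After 4 weeks the L4 and L5 DRGs were taken from the ipsilateral and the contralateral side of every rat, which gives 8 groups of 5 DRGs: SNL L4 ipsilateral and contralateral, SNL L5 ipsilateral and contralateral, and the same for sham. Each DRG was run on 1 Affymetrix Rat230_2 array, and the values are MAS 5 signals, a linear brightness per probe set scaled by the authors to the same trimmed mean on each array. No rat carried a transgene, none is described as treated with an agent, and the rats' MHC haplotypes are not given in the sources used here. In this model the L5 neurons have their axons cut off from the periphery, whereas most L4 axons are spared and run on through a nerve that holds degenerating L5 fibers.

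MHC class II molecules are pairs of an alpha and a beta chain that carry peptides from the endosomes to the surface of antigen-presenting cells, where CD4+ T cells read them. In the rat, RT1-B is the counterpart of human HLA-DQ (RT1-Ba encodes the alpha chain, RT1-Bb the beta chain) and RT1-D of HLA-DR (RT1-Da alpha, RT1-Db1 beta). The invariant chain, encoded by Cd74, occupies the groove of new class II pairs and guides them to the endosome, and RT1-DMa and RT1-DMb form the editor that swaps the last invariant chain fragment for peptide. In peripheral nerve and DRG these genes are known mainly from macrophages, and their transcription depends on the co-activator CIITA.

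Array medians ranged from 28.6 to 55.6 and were higher ipsilaterally in all 4 side comparisons. The log2 ratio of the GAPDH 3′ to 5′ control signals, a sign of RNA length, was also higher ipsilaterally, at 2.15 to 2.47 against 1.32 to 1.46 in SNL L4 and 1.45 to 1.72 against 0.895 to 1.10 in SNL L5 (exact two-sided permutation p = 0.00794 in each, the smallest that 5 against 5 allows). Its part in the results was not tested. By their titles the 10 SNL L5 arrays belong to another array series than the other 30, and both sides of each comparison lie within 1 series. Sensory neuron markers were present on every array (11 markers, summed signal 11371 to 27309) but differed by side, as given beside the class II results. A term for the rat number was called for 0 of 31042 probe sets (limma moderated F test), with 4.46% at an unadjusted p under 0.05, so the p-values below measure the spread between these arrays, which may be technical.

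Cd74, the invariant chain, was higher on the ligated side at both levels, most in the ligated L5 ganglion. In SNL L5 its signals were 2575, 2269, 2501, 2407 and 2396 in the ipsilateral DRGs of rats 4, 8, 9, 18 and 48, against 321, 349, 337, 329 and 335 in their contralateral DRGs. In SNL L4 the same rats gave 789, 725, 767, 687 and 791 ipsilaterally, against 333, 321, 344, 299 and 346 contralaterally. The sides did not overlap at either level, and the ipsilateral L5 values were all above the ipsilateral L4 values. On the scale of log2(signal + 16), used for every log2 value here, Cd74 was 2.80 ± 0.05 higher ipsilaterally in SNL L5 (SE, n = 5 a side, adjusted p = 6.41e-17) and 1.15 ± 0.06 higher in SNL L4 (adjusted p = 1.1e-09). These are 6.98-fold and 2.23-fold. Sham DRGs lay between the SNL groups, at 466 to 577 in L5 ipsilateral, 491 to 544 in L5 contralateral, 378 to 447 in L4 ipsilateral and 410 to 467 in L4 contralateral DRGs, with overlapping sides. All 10 contralateral DRGs of SNL rats, at 299 to 349, were below all 20 sham DRGs. This did not hold for every member: the brightest RT1-Ba probe set gave 220 to 279 in SNL L4 contralateral DRGs, against at most 212 in sham DRGs.

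**Figure D1:**
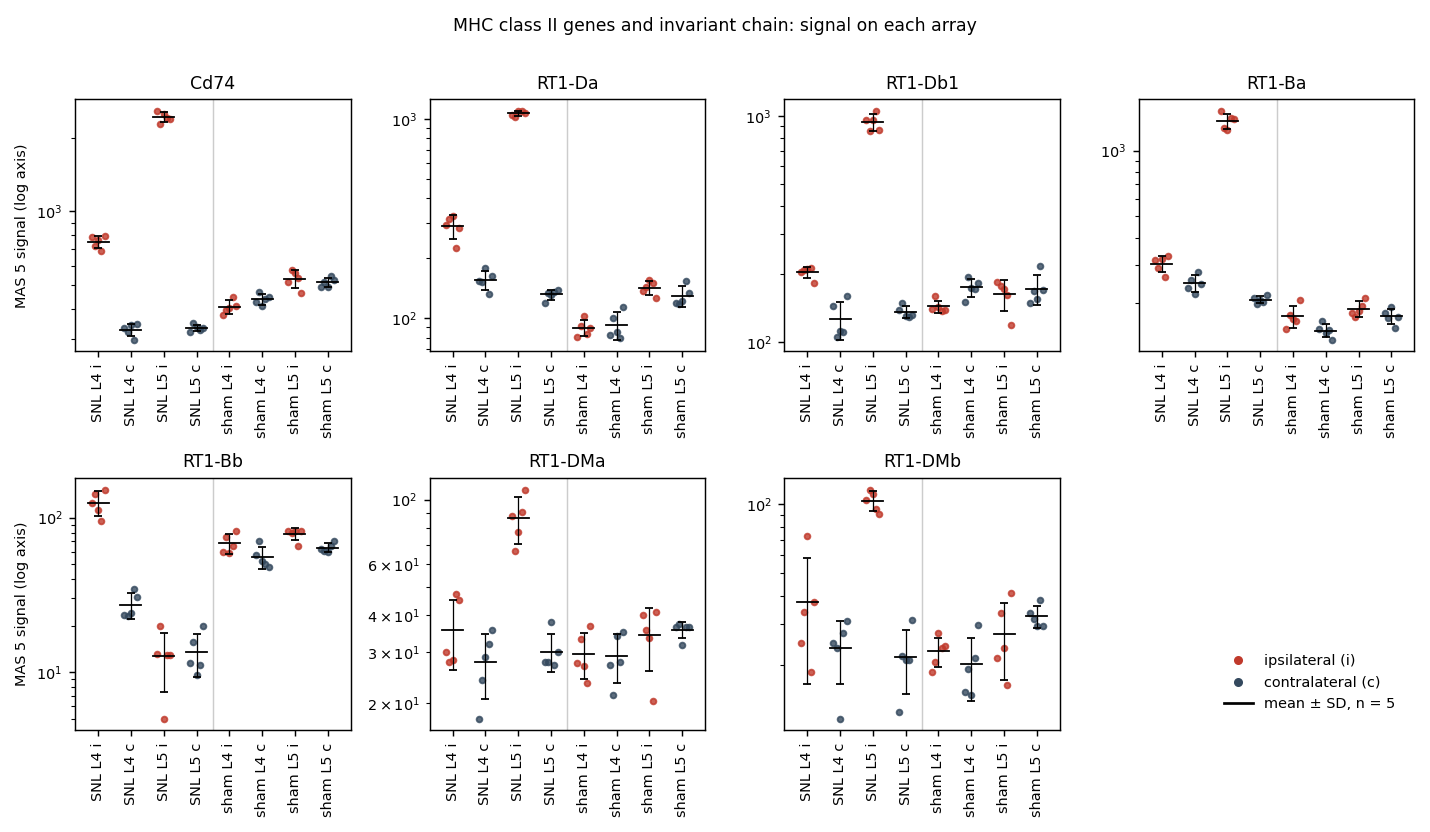
Signal of each member's brightest probe set on every array (log axis, a separate range per gene) in the 8 groups, ipsilateral (i, red) left of contralateral (c, dark); points are single DRGs, bars the mean ± SD of 5. The SNL L5 ipsilateral DRGs stand above all others for 6 genes, whereas RT1-Bb was brightest in SNL L4 ipsilateral DRGs, at 95 to 151.

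RT1-Da, the alpha chain of the RT1-D pair, rose by about the same amount in the ligated ganglion. Its signals in SNL L5 were 1048, 1023, 1091, 1093 and 1069 ipsilaterally, against 119, 134, 131, 135 and 139 contralaterally. In SNL L4 they were 295, 314, 325, 224 and 284 ipsilaterally, against 154, 152, 180, 133 and 163 contralaterally. The sides were again separate at both levels. The log2 fold changes were 2.87 ± 0.05 in SNL L5 (adjusted p = 7.09e-17) and 0.82 ± 0.10 in SNL L4 (adjusted p = 1.19e-05). In sham rats the sides overlapped, at 127 to 155 against 118 to 155 in L5 and 80.7 to 103 against 79.7 to 114 in L4.

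RT1-Db1, the beta chain of that pair, has a brighter probe set (1370383_s_at) and a dimmer one (1370382_at). The brighter gave 962, 853, 955, 1051 and 868 in SNL L5 ipsilateral DRGs, against 139, 150, 131, 130 and 132 contralaterally. In SNL L4 it gave 205, 208, 211, 213 and 183 ipsilaterally, against 144, 106, 113, 111 and 161 contralaterally. The corresponding log2 fold changes were 2.64 ± 0.06 (adjusted p = 1.91e-15) and 0.64 ± 0.10 (adjusted p = 0.000281). Both probe sets separated the sides at both levels, but not by the same amounts. The dimmer one averaged 147 ± 21.8 against 40.2 ± 9.46 in SNL L5 and 109 ± 19.1 against 33.0 ± 7.01 in SNL L4 (SD, n = 5 a side), which are log2 fold changes of 1.55 and 1.35. Thus the brighter probe set changed 4.02 times more in L5 than in L4 (difference in log2 fold change 2.01 ± 0.12, adjusted p = 9.76e-13), whereas for the dimmer one the levels did not differ beyond error (0.19 ± 0.19, adjusted p = 0.566).

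RT1-Ba, the alpha chain of the RT1-B pair, is measured by 4 probe sets, and the 2 brightest disagreed on where it changed most. The brightest, 1377334_at, gave 1519, 1264, 1242, 1406 and 1391 in SNL L5 ipsilateral DRGs, against 212, 198, 207, 204 and 218 contralaterally, a log2 fold change of 2.62 ± 0.06 (adjusted p = 9.55e-16). In SNL L4 the same probe set gave 314, 290, 320, 265 and 330, against 235, 256, 220, 279 and 245. Here the sides overlapped in 1 rat's DRGs and the change was 0.28 ± 0.08 (adjusted p = 0.0175). That call was lost with arrays scaled to equal medians (0.15, adjusted p = 0.221), without an intensity trend (adjusted p = 0.0699), with the methods' test at its threshold of 0.001 and without the contralateral DRG of rat 9 (adjusted p = 0.0522).

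The second RT1-Ba probe set, 1370822_at, showed the opposite order of levels. It gave 58.2, 78.4, 45.4, 40.9 and 69.6 in SNL L4 ipsilateral DRGs, against 10.8, 6.60, 4.87, 5.19 and 8.25 contralaterally, a log2 fold change of 1.67 ± 0.18 (adjusted p = 3.74e-06). In SNL L5 it gave 21.4, 23.4, 13.9, 16 and 16.2, against 12.1, 4.27, 6.49, 0.634 and 9.39, a change of 0.61 ± 0.14 (adjusted p = 0.00159). Both comparisons had separate sides, and the L5 change was smaller than the L4 change by 1.05 ± 0.23 on the log2 scale (adjusted p = 0.00108), whereas by the brightest probe set it was larger by 2.34 ± 0.10 (adjusted p = 3.47e-16). The remaining RT1-Ba probe sets, 1381593_x_at and 1392334_at, were dim, with group means of 3.80 to 17.5 and 2.26 to 10.5, and neither was called in SNL rats.

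RT1-Bb, the beta chain of that pair, had a probe set that did not follow those of the other members. No table used here tells whether the probes of this set or of the second RT1-Ba set match the alleles of these rats, so their values are those of the probe sets. Its brighter probe set, 1371033_at, gave 124, 142, 112, 95 and 151 in SNL L4 ipsilateral DRGs, against 23.5, 22.9, 24.0, 34.6 and 30.6 in the contralateral DRGs of the same rats. The sides were far apart, and the log2 fold change of 1.70 ± 0.14 (adjusted p = 2.43e-07) was the largest among the members' brightest probe sets in SNL L4. In SNL L5 it gave 13, 19.8, 5.01, 12.8 and 12.9 ipsilaterally, against 11.5, 15.6, 9.57, 11.1 and 19.8 contralaterally. These were dim, with means of 12.7 and 13.5, below the 16 added to each signal. They overlapped, with a change of -0.05 and a 95% interval from -0.32 to 0.23 (adjusted p = 0.811). All 20 sham DRGs were brighter than these: 58.9 to 82.0 in L4 ipsilateral, 47.6 to 70.9 in L4 contralateral, 65.5 to 82.4 in L5 ipsilateral and 60 to 70.7 in L5 contralateral DRGs. Thus within the same 5 SNL rats the signal was above every sham value in 1 of the 4 ganglia and below every sham value in the other 3.

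The second RT1-Ba probe set, for the partner chain, was like it in the contralateral SNL DRGs, which at 0.634 to 12.1 all lay below the 20 sham DRGs, at 14.6 to 54.2. It was unlike it ipsilaterally, where its SNL L4 values (40.9 to 78.4) and its SNL L5 values (13.9 to 23.4) overlapped sham, and the L5 sides differed. The Pearson correlation of RT1-Bb (1371033_at) with that probe set was 0.84 over the 40 arrays, against -0.47 with the brightest RT1-Ba probe set. The arrays share groups and animals, so these are descriptions. The second RT1-Bb probe set, 1371065_at, was dim, with group means of 3.12 to 15; it was not called in SNL L4 (-0.09) and was called higher in SNL L5 (0.52 ± 0.20, adjusted p = 0.0448) with overlapping sides.

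**Figure D2:**
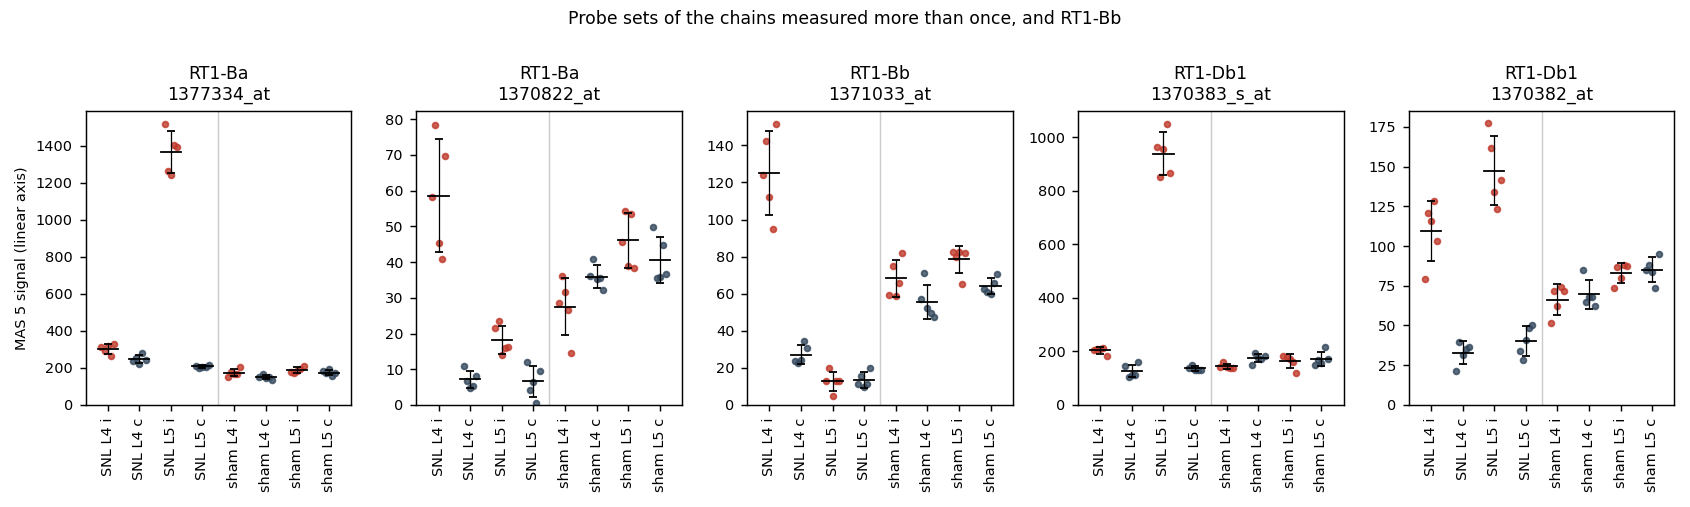
Signal on every array (linear axes from 0, a separate range per panel) for both bright RT1-Ba probe sets, the brighter RT1-Bb probe set and both RT1-Db1 probe sets; groups, colors and bars as in the plot of member signals. The second RT1-Ba probe set and RT1-Bb were higher in sham DRGs and in SNL L4 ipsilateral DRGs than in contralateral SNL DRGs, and the brightest RT1-Ba and RT1-Db1 probe sets were highest in SNL L5 ipsilateral DRGs.

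The editor genes changed in the ligated ganglion and were not called at L4. RT1-DMb, the beta chain, gave 105, 116, 111, 95.2 and 91.1 in SNL L5 ipsilateral DRGs, against 12.5, 21.9, 21.0, 21.0 and 31.4 contralaterally, a log2 fold change of 1.68 ± 0.12 (adjusted p = 2.95e-09). RT1-DMa, the alpha chain, gave 88.0, 66.4, 77.4, 90.6 and 108, against 27.8, 27.6, 37.8, 26.9 and 30.0, a change of 1.14 ± 0.11 (adjusted p = 1.87e-07). Both had separate sides in SNL L5. In SNL L4, RT1-DMb ranged from 18.6 to 72.8 ipsilaterally against 11.6 to 30.9 contralaterally (0.38, 95% interval -0.08 to 0.83, adjusted p = 0.294). RT1-DMa ranged from 27.7 to 47.3 against 17.7 to 35.7 (0.24, interval -0.11 to 0.59, adjusted p = 0.400). Both intervals include a change of the size seen for the brightest RT1-Ba probe set at L4 (0.28), and that of RT1-DMb also includes the change of RT1-Db1 (0.64).

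In all, 6 of 7 members were called higher ipsilaterally in SNL L5, where 30.3% of 31042 probe sets were called higher, and the sides of those 6 did not overlap, as for 20.8% of probe sets. In SNL L4, 5 of 7 members were called higher (10.1% of probe sets), 4 of them without overlap (7.63%). The median log2 fold change of the members was 2.62 in SNL L5, against 0.12 over all probe sets, and 0.64 in SNL L4, against 0.07. A call is an adjusted p under 0.05 in limma over all probe sets. In the same SNL L5 comparison 8 of 11 sensory neuron markers were called lower (16.8% of probe sets) and 2 higher. Their median was -0.74, with Scn10a at -1.78 and Calca at -1.46, and their summed signals were 12628 to 13906 ipsilaterally against 16128 to 19883 contralaterally. There 6 of 6 Schwann cell markers were called higher (median 0.41). In SNL L4, 4 of the 11 neuron markers were called higher and 2 lower (9.01% of probe sets). Their part in the class II results was not tested. With bulk tissue, more cells of a type and more RNA per cell cannot be told apart.

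**Figure D3:**
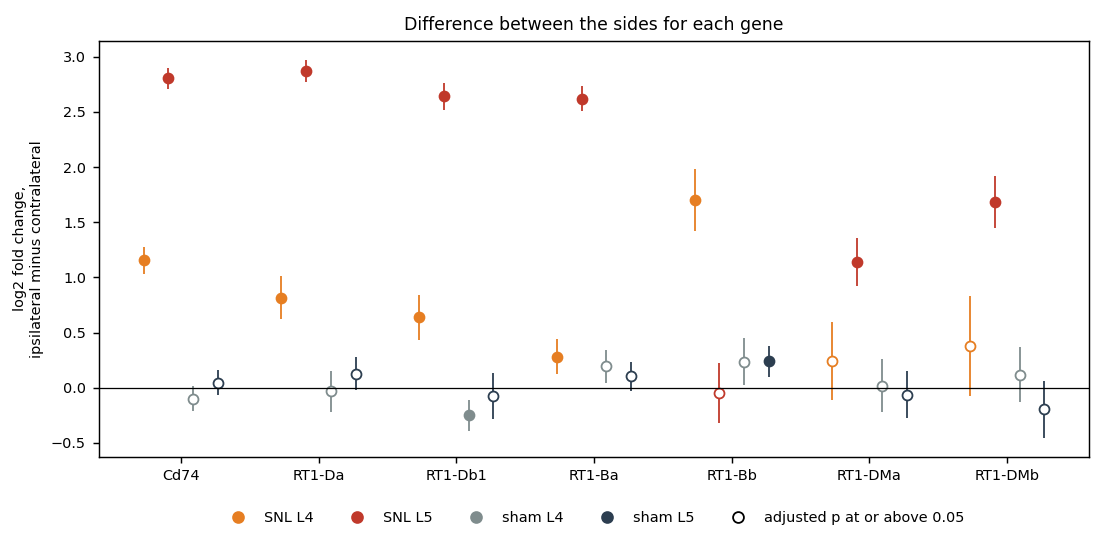
Log2 fold change, ipsilateral minus contralateral, of each member's brightest probe set in SNL L4, SNL L5, sham L4 and sham L5; bars are 95% intervals, filled points were called and open points were not. In SNL L5, 4 genes lie between 2.62 and 2.87, the DM genes at 1.14 and 1.68, and RT1-Bb at -0.05.

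In sham rats few members changed. In sham L4, 1 of 7 members was called, RT1-Db1, which fell by 0.25 on the log2 scale (141, 160, 143, 138 and 139 ipsilaterally, against 151, 194, 174, 173 and 182 contralaterally, adjusted p = 0.0165), while 9.85% of probe sets were called lower. Its second probe set was not called (-0.06, adjusted p = 0.708), and the call of the first was lost with quantile normalization (-0.14, adjusted p = 0.160). In sham L5, 1 of 7 was called higher, against 31.1% of probe sets: RT1-Bb, with 82.3, 80.0, 82.4, 65.5 and 82.2 ipsilaterally against 62.4, 60.9, 60, 65.6 and 70.7 contralaterally (0.24 ± 0.07, adjusted p = 0.0113), a direction that turned with arrays scaled to equal medians (-0.02). The sham L5 counts depended on the scaling: 4 members were called with quantile normalization (3 higher and 1 lower) and 5 with equal medians, all 5 lower ipsilaterally, where the median over all probe sets was -0.11 in place of 0.06.

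The side difference was then compared between SNL and sham rats. At L5, 6 of 7 members had a larger change in SNL than in sham rats (20.9% of probe sets), led by Cd74 (2.76 ± 0.07, adjusted p = 7.11e-20), RT1-Da (2.75 ± 0.09, adjusted p = 2.55e-18) and RT1-Db1 (2.72 ± 0.13, adjusted p = 4.83e-15), with RT1-Bb at -0.29 (adjusted p = 0.159). At L4, 4 of 7 did (5.72%): RT1-Bb (1.47 ± 0.18), Cd74 (1.25 ± 0.08), RT1-Db1 (0.89 ± 0.13) and RT1-Da (0.85 ± 0.14). The brightest RT1-Ba probe set was not among them (0.09, adjusted p = 0.681), whereas its second was (1.94 ± 0.22, adjusted p = 3.3e-07). The L5 comparison sets arrays of 1 series against arrays of the other, and series and ligation cannot be told apart in it.

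Within SNL rats, 6 of 7 members changed more in L5 than in L4 (11.1% of probe sets). The differences in log2 fold change were 2.34 for RT1-Ba, 2.06 for RT1-Da, 2.01 for RT1-Db1, 1.65 for Cd74, 1.31 for RT1-DMb and 0.90 for RT1-DMa. RT1-Bb, dim on both sides in L5, changed less there, by -1.75 ± 0.21 (adjusted p = 4.59e-07), as did 8.08% of probe sets. This comparison also sets the array series against each other.

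The genes lie in the rat MHC on chromosome 20, apart from Cd74. In the GRCr8 assembly RT1-Da spans chr20:4515393-4520387, RT1-Db1 chr20:4550594-4560182, RT1-Ba chr20:4577057-4581650, RT1-Bb chr20:4598475-4604118, RT1-DMb chr20:4695009-4702560 and RT1-DMa chr20:4708932-4712335, and Cd74 spans chr18:56527071-56536406. RT1-Ba and RT1-Bb, whose probe sets disagreed most, are thus neighbors. Class II promoters are known for an X box, bound by the RFX complex, and a Y box, bound by NF-Y, on which CIITA assembles.

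The stretch of promoter with letters like those of these boxes is shown for the 6 of 7 members that matched the RefSeq table for GRCr8. RT1-DMb, which rose in SNL L5, is not shown, whereas RT1-Bb, whose brighter probe set did not rise there, is shown. The window runs from 250 bases before to 50 after the start in that table. For Cd74, RT1-Da and RT1-Db1 this start lies inside the gene span given above. Capitals mark the X-box letters (GNNAC, then any 1 base, then GATG) and ATTGG, for the Y box, or in RT1-Ba and Cd74 the shorter core GCAAC with ATTGG or, on the opposite strand, its complement. Each is given 5′ to 3′ on the strand of its gene, at chr20:4515313-4515395 (+) for RT1-Da, chr20:4560213-4560294 (-) for RT1-Db1, chr20:4576971-4577028 (+) for RT1-Ba, chr20:4604150-4604231 (-) for RT1-Bb, chr20:4712370-4712452 (-) for RT1-DMa and chr18:56527007-56527150 (+) for Cd74.
RT1-Da: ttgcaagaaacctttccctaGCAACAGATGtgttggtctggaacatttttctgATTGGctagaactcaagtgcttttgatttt
RT1-Db1: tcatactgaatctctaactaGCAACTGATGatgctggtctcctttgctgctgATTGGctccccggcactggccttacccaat
RT1-Ba: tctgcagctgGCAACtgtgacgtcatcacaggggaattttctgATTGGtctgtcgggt
RT1-Bb: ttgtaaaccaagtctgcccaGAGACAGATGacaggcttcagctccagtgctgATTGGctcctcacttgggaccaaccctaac
RT1-DMa: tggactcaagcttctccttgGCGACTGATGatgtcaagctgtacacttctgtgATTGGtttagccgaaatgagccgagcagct
Cd74: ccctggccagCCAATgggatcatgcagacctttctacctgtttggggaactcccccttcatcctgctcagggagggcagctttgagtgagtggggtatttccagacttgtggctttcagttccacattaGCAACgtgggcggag
In Cd74 the marked letters were a Y complement at -189 and a GCAAC at -70, which is not the X-then-Y order, and neither Cd74 nor RT1-Ba held the longer X letters. The X letters stood 22 bases before the Y letters in RT1-Db1 and RT1-Bb and 23 bases before them in RT1-Da and RT1-DMa. Letters in this order on 1 strand, 10 to 40 bases apart, were found in 4 of the 6 members and in 31 of 33469 promoters in the table (0.0926%), while the X letters on either strand were in 2.84%, ATTGG in 37.5% and GCAAC in 35.1%. The X letters were chosen after the members' sequences had been seen, so the share describes them and tests nothing, and GCAAC overlaps the X letters where both match. Of the 4 members with the pair, RT1-Da (2.87), RT1-Db1 (2.64) and RT1-DMa (1.14) rose in SNL L5 and RT1-Bb (-0.05) did not. Cd74 (2.80) and RT1-Ba (2.62) rose without the pair. Whether the letters bear on these changes was not tested.

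**Figure D4:**
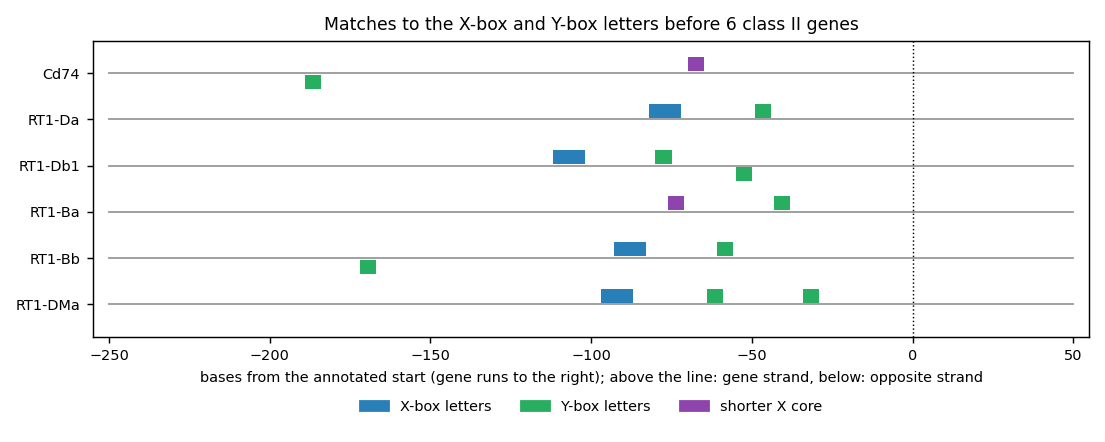
Position of the X-box letters (blue), the Y-box letters (green) and, where the longer X letters were not found, the shorter X core (purple) before 6 members, in bases from the annotated start; blocks above a line are on the gene's strand and blocks below on the opposite strand. In RT1-Da, RT1-Db1, RT1-Bb and RT1-DMa a blue block precedes a green one by 22 or 23 bases.

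Genes listed for class II transcription and its regulation, in either direction, rose in part in SNL L5. Those called lower there were Creb1 (-0.33) and Socs1 (-0.39). Of 17 measured, 9 were called higher (30.3% of all probe sets) and 2 lower (16.8%) in SNL L5, with a median log2 fold change of 0.31 against 0.13 over all genes. In SNL L4, 1 was called higher (10.1%) and 4 lower (9.01%), with a median of -0.09 against 0.07. The 4 lower were Rfxap (-0.59), Nfyb (-0.46), Creb1 (-0.44) and Jak1 (-0.30), each with separate sides. For SNL minus sham at L4, Nfyb (-0.38) and Jak1 (-0.27) were called lower, and Rfxap (-0.39) and Creb1 (-0.26) were not called. Ciita, the co-activator itself, gave 36.8 to 49.2 ipsilaterally against 6.69 to 14 contralaterally in SNL L5 (1.22 ± 0.11, adjusted p = 8.38e-08). In SNL L4 it gave 7.80 to 33.1 against 15.8 to 31.4 (-0.09, adjusted p = 0.801). Ciita was also called higher in sham L4 (0.48, adjusted p = 0.0150), with separate sides. It was not called in sham L5 (0.27, adjusted p = 0.0996). For SNL minus sham, Ciita was called higher at L5 (0.95) and was not called at L4 (-0.57, adjusted p = 0.124). Ifngr1 and Ifngr2, the chains of the receptor for interferon-gamma, which induces CIITA, rose in SNL L5 by 0.78 and 0.97. Ifngr2 was the 1 gene of the list called higher in SNL L4 (0.39, adjusted p = 0.028), with overlapping sides. That call was lost with quantile normalization (adjusted p = 0.0901), with equal medians (adjusted p = 0.143) and on leaving out any of 4 arrays, the ipsilateral DRG of rat 48 or the contralateral DRG of rat 8, 18 or 48 (adjusted p up to 0.0787), and SNL minus sham at L4 was 0.15 (adjusted p = 0.648). Irf8, a transcription factor of the myeloid lineage, rose by 0.85 in SNL L5 (42.1 ± 11.3 against 16 ± 4.16).

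Of 15 measured genes of class II processing and turnover, 8 were called higher (30.3% of all probe sets) and 1 lower (16.8%) in SNL L5. In SNL L4, 4 were called higher (10.1%) and 1 lower (9.01%). The medians were 0.23 in SNL L5 and 0.16 in SNL L4. Ctss, cathepsin S, which trims the invariant chain, gave 729 to 772 in SNL L5 ipsilateral DRGs against 190 to 233 contralaterally, and 232 to 328 against 181 to 206 in SNL L4. It was higher by 1.78 ± 0.05 (adjusted p = 5.84e-14) and 0.41 ± 0.09 (adjusted p = 0.00235), without overlap in either. Ifi30, the thiol reductase that unfolds antigen, rose by 1.40 in SNL L5, Marchf1, a ligase that removes class II from the surface, by 1.19 and Ctsh, another cathepsin, by 0.81. None of these 3 was called in SNL L4.

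Of 20 measured class I genes, 6 were called higher and 2 lower in SNL L5, a share of higher calls near the 30.3% of all probe sets. In SNL L4, 3 were called higher (10.1% of all probe sets) and 2 lower (9.01%). Erap1, the peptide trimming enzyme, rose by 0.76 in SNL L5, RT1-T24-4 by 0.70 and the immunoproteasome subunits Psmb9 and Psmb8 by 0.70 and 0.53. B2m, the light chain of class I molecules, gave 1768 to 2062 ipsilaterally against 2408 to 2796 contralaterally in SNL L4, where it fell by 0.42 (adjusted p = 3.57e-05). In SNL L5 it gave 2533 to 3074 against 2258 to 3184 (0.08, adjusted p = 0.479; -0.14 with quantile normalization and with equal medians). Of 5 measured costimulation genes, Icam1, an adhesion molecule (1.5 ± 0.13), and Cd80 (0.49 ± 0.13) rose in SNL L5, and 0 were called in SNL L4 by limma (2 at an unadjusted p under 0.05, both higher). Cd80 was also called higher in sham L4 (0.53) and sham L5 (0.48).

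Markers of macrophages moved with the members at L5, and in part at L4. Of 18 measured markers, 15 were called higher and 0 lower in SNL L5 by limma (15 and 0 at an unadjusted p under 0.05). There 30.3% of all probe sets were called higher. The summed signal of the markers was 4021 to 4389 ipsilaterally against 1418 to 1532 contralaterally. Adgre1 (1.95), Cd68 (1.91), Fcer1g (1.78) and C1qc (1.70) had the largest changes, and Aif1 rose by 1.37 and Ptprc by 0.73. Itgam and Cx3cr1 were not called and stood near the lower end of the scale, at means of 5.09 and 2.65 over all arrays. Cd163, at a mean of 37.5, was not called either (0.28, adjusted p = 0.103). Lyve1 was called higher in SNL L5 (0.43) and in sham L5 (0.49). For SNL minus sham at L5, Cd163 (0.03) and Lyve1 (-0.06) were not called. In SNL L4, 4 of 18 were called higher and 0 lower, where 10.1% of all probe sets were called higher. These 4 were Csf1r (0.60), C1qb (0.60), C1qa (0.56) and Adgre1 (0.51), each with separate sides. The sums were 1599 to 1865 against 1533 to 1707, and Aif1 (0.20), Cd68 (-0.05) and Ptprc (0.15) were not called. For SNL minus sham at L4, 6 of 18 were called higher (5.72% of probe sets) and 0 lower, Aif1 (0.65) among them. In sham L4 itself 6 were called lower (9.85% of all probe sets) and 1 higher, where 8413 of 31042 probe sets were called in either direction. In sham L5, 9 of 18 were called lower and 3 higher (31.1% of all probe sets called higher). There 15618 of 31042 probe sets were called in either direction. Adgre1 (-0.66) and Fcer1g (-0.48) were among the 9, and the 3 were Lyve1 (0.49), Itgam (0.30) and Cd163 (0.25). The part of these markers in the class II changes was not tested.

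Markers of other immune cells were called in part. In SNL L5, 3 of 6 measured dendritic cell markers were called higher (30.3% of all probe sets), Clec10a (1.38), Itgax (0.76) and Clec9a (0.53). At an unadjusted p under 0.05 by limma, 4 were higher and 1 lower. The lower one was Flt3 (-0.41), which was called lower for SNL minus sham at L5 (-0.61). Batf3 (0.29) and Cd83 (-0.03) were not called. In SNL L4, 0 of 6 were called by limma (2 at an unadjusted p under 0.05, both higher). Of 14 T and NK cell markers 6 were called higher in SNL L5 (30.3% of all probe sets), led by Gzmb (1.52), and 1 in SNL L4 (10.1%), while Cd3e was called in neither (0.13 and 0.23). The same markers were called higher in sham rats too, 8 of 14 in sham L5 (31.1% of all probe sets) and 5 of 14 in sham L4. In sham L4, 8413 of 31042 probe sets were called in either direction, 3058 of them lower. For SNL minus sham at L5 2 were called higher (20.9%) and 1 lower, with a median of -0.01. Of 5 B cell markers 2 were called higher in SNL L5 (30.3% of all probe sets), Cr2 (0.58) and Fcrla (0.18). In SNL L4, 0 were called by limma (1 at an unadjusted p under 0.05). In sham rats 2 of 5 were called higher at each level (31.1% of all probe sets in sham L5, and for sham L4 the counts just given). Fcrla rose by 1.13 in sham L5 and 0.78 in sham L4. For SNL minus sham, Fcrla was called lower at L5 (-0.94) and at L4 (-0.54), and Cr2 was called higher at L5 (0.41). The defining markers Cd79b and Ms4a1 were at means of 3.91 and 11.7 over all arrays and were not called. The summed signals of the B cell markers were 181 to 197 against 146 to 165 in SNL L5. Neutrophil markers went the other way: 5 of 7 fell ipsilaterally at both levels, where 9.01% (SNL L4) and 16.8% (SNL L5) of all probe sets were called lower. S100a8 gave 28 to 42.2 against 548 to 605 in SNL L4 and 192 to 223 against 530 to 555 in SNL L5. In sham L5, 6 of 7 neutrophil markers were called higher (31.1% of all probe sets) and 0 lower. Sham L4 had 3 called higher and 1 lower (9.85% of all probe sets called lower). S100a8 was called higher in sham L5 (0.80) and lower in sham L4 (-0.39). Of 6 skeletal muscle markers 5 fell in SNL L5, by 2.23 (Actn3) to 4.21 (Tnnt3) on the log2 scale, and Myh1, which makes up most of their summed signal in the ipsilateral DRGs, was called higher (0.28). Their sums were 1321 to 1461 ipsilaterally, against 3547 to 4125 contralaterally. The part of these differences in the class II changes was not tested.

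**Figure D5:**
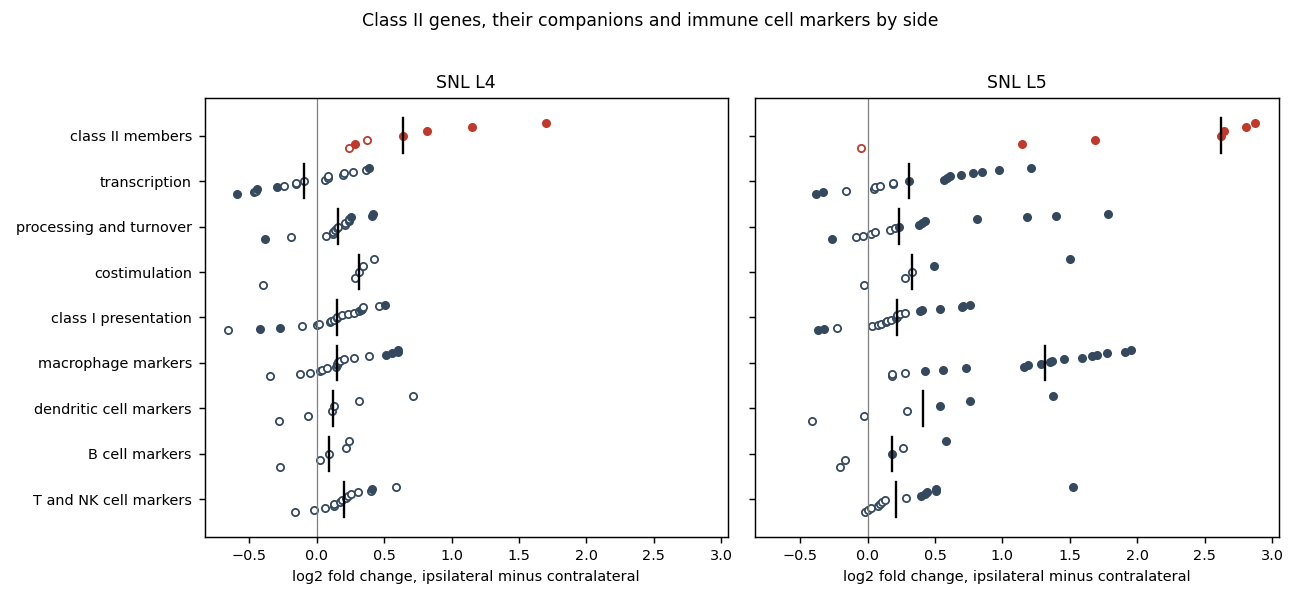
Log2 fold change, ipsilateral minus contralateral, of every measured gene of 9 lists in SNL L4 (left) and SNL L5 (right); filled points were called, open points were not, and black lines are list medians. In SNL L5 the class II members have a median of 2.62 and the macrophage markers of 1.32; in SNL L4 these are 0.64 and 0.15.

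Over the 40 arrays the genes most like the mean of the 7 members, by Pearson correlation among 8895 candidate genes, were Matn2 (0.95), Dusp26, Atf3, Ggt5, Tubb6, Steap4, Tpm4 and Tgfbi (0.94). Atf3, a transcription factor induced in neurons by axon damage, averaged 1164 ± 38.1 in SNL L5 ipsilateral against 75.9 ± 9.91 in contralateral DRGs. The arrays share 8 groups, and with group means subtracted the highest values were lower, from 0.67 (Rab33a) to 0.61 (Raph1), and none of the 8 genes above was among its first 8. With group means subtracted, Cd74 correlated with RT1-Da at 0.57 and with RT1-Db1 at 0.49, and with the brightest probe sets of the other members at -0.17 to 0.11.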

How the data were processed

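RNA was purified from individual DRGs and hybridized to 1 array each. The deposited values are MAS 5 intensity signals per probe set (version not given in the sources used here), which the authors scaled to a common trimmed mean; they are linear and were used as deposited. Probe sets were named from the platform annotation: 20826 had 1 symbol, 436 several and 9780 none, and 57 control probe sets were left out. Signals were analyzed as log2(signal + 16) with limma 3.58.1 (lmFit, eBayes with trend, R 4.3.3) and Benjamini-Hochberg adjustment over 31042 probe sets. Each side comparison was fitted on its own 10 arrays, and each difference of side effects on its 20 arrays. Precision is set by how few arrays each group has. The fitting was tested on simulated data.

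The members and lists were chosen with earlier results of these data known. Named genes were all members, up to 4 called genes of each list by size of change, a few defining genes (Cd79a among them had no probe set of its own) and the 8 genes most like the members' mean; other genes, and the likeness to RT1-Bb, were chosen after their values were seen. Sides of the same rat were not blocked in the fit. The pairing comes from the rat numbers in the labels: deviations of same-rat DRGs from their group means correlated at -0.145 to 0.0950 over probe sets.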

Additional observations from a re-analysis of the deposited data

Results flagged for a closer look

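Of 56 groups of 5 arrays (7 members in 8 groups), 4 held 1 array far from the other 4 by Dixon's criterion, which chance gives in about 1 of 20 groups. RT1-Bb in sham L5 ipsilateral DRGs was lowest in rat 22, at 65.5 with the next at 80.0. RT1-Db1 in SNL L4 ipsilateral DRGs was lowest in rat 48, at 183 with the next at 205. RT1-Db1 in sham L4 ipsilateral DRGs was highest in rat 14, at 160 with the next at 143, and RT1-DMa in sham L5 contralateral DRGs was lowest in rat 17, at 31.7 with the next at 36.4.

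The side effect differed between SNL and sham rats, by limma's test of the difference itself, in 4 members at L4 and 6 at L5. At L4 the differences in log2 fold change, SNL minus sham, were 1.25 for Cd74, 1.47 for RT1-Bb, 0.85 for RT1-Da and 0.89 for RT1-Db1. At L5 they were 2.76 for Cd74, 2.52 for RT1-Ba, 2.75 for RT1-Da, 2.72 for RT1-Db1, 1.20 for RT1-DMa and 1.88 for RT1-DMb. Between L5 and L4 of SNL rats all 7 members differed: Cd74 by 1.65, RT1-Ba by 2.34, RT1-Bb by -1.75, RT1-Da by 2.06, RT1-Db1 by 2.01, RT1-DMa by 0.90 and RT1-DMb by 1.31. In both sets that involve SNL L5, array series and group cannot be told apart, and the sign for RT1-Ba and RT1-Bb between L5 and L4 turned with the second probe set.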

How the results depend on the processing

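Of 49 member values 30 were called; under the alternatives that kept all arrays, 261 of 275 values of called members kept direction and call, 9 lost the call and 5 turned. With the rat as replicate block the counts of members called were 5, 6, 1, 1, 4, 6 and 7 (SNL L4, SNL L5, sham L4, sham L5, SNL minus sham at L4 and at L5, SNL L5 minus L4), as without it, and the block changed no member's call. Counts moved in sham L4 (1 called) to 2 with equal array medians or all 8 groups in 1 fit and to 0 with the methods' t-test, an adjusted p under 0.01 or the second probe sets (1 to 2 on leaving out 1 array). In sham L5 (1 called) they moved to 4 with quantile normalization, 5 with equal medians and 0 with the t-test, all 8 groups or an adjusted p under 0.01 (1 to 2 on leaving out 1 array). SNL L5 minus L4 moved to 4 of 7 where a mean signal above 50 was required, since fewer members were tested. The second probe set turned RT1-Bb in SNL L4 (-0.0901), SNL L5 (0.52), SNL minus sham L4 (-0.37) and L5 (0.21) and SNL L5 minus L4 (0.61), and RT1-Ba in sham L4 (-0.28) and SNL L5 minus L4 (-1.05). Quantile normalization turned RT1-DMa (-0.15) and RT1-DMb (-0.0795) in sham L4, RT1-Db1 in sham L5 (0.0766), and B2m (-0.14) and Cd3e (-0.0026) in SNL L5, and called RT1-Bb in SNL minus sham L5 (-0.42, adjusted p = 0.0302). Equal medians turned RT1-Ba (-0.0194), RT1-DMa (-0.14) and RT1-DMb (-0.0132) in sham L4, Cd74 (-0.26), RT1-Ba (-0.19), RT1-Bb (-0.0191) and RT1-Da (-0.16) in sham L5, Psmb8 in SNL L4 (-0.00027) and B2m in SNL L5 (-0.14). Leaving out 1 array gave both signs for RT1-Bb in SNL L5 (-0.13 to 0.0607), RT1-Da (-0.0761 to 0.0350) and RT1-DMa (-0.0451 to 0.0693) in sham L4, RT1-Db1 (-0.12 to 0.0242) and RT1-DMa (-0.11 to 0.0488) in sham L5, and Cd68 (-0.19 to 0.18) and Ciita (-0.20 to 0.0607) in SNL L4, none of them called. Over all probe sets, 5938 were called in SNL L4, against 10507 with all 8 groups in 1 fit. The cause of these changes was not tested, apart from the filter. The t-test was not run for differences of sides.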

Other observations

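By a likeness computed after its values were seen, the genes that most resembled RT1-Bb (1371033_at) over the 40 arrays were Dgkz (0.84), Caprin2 (0.83), Lrrn2 (0.83), Dtnb (0.82) and the class I gene RT1-T24-3 (0.81). None of these was among the 8 genes most like the members' mean. The arrays share 8 groups and 10 rats, so these correlations are a description.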
